A study of Mus musculus with 12 samples.

Results

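The nuclear receptors are a family of transcription factors that bind DNA and, in most cases, a small lipid-soluble ligand. The family was followed here through 37 named receptor genes, each read from the brightest probe set that the platform annotation assigned to that symbol. Of the 37 genes, 34 had a probe set with 1 gene symbol, out of 30142 genes with such a probe set, and 31 were bright enough to be tested, out of 18725 genes tested. The probe sets of Ppard and Esrra were annotated to several genes and were not used here, nor was Nr1h2. Hnf4g, Pgr and Nr4a3 were measured, with means of 3.58, 4.03 and 4.33, but lay under the brightness filter of 4.55 and were not tested.

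Liver RNA came from male C57BL/6 mice aged 12 weeks, hybridised to 12 Affymetrix whole-transcript arrays. The control group (4 arrays) held males whose parents were lean controls. The F2 group (4 arrays) held grandsons, and the F3 group (4 arrays) great-grandsons, of obese females of the genotype Avy/a. Avy is the viable yellow allele of agouti, whose expression outside the hair follicle leads to obesity. These generations are those of the design text, while the sample labels call the F2 and F3 males sons of an obese mother. The labels do not give the agouti genotype of the males themselves, their diet, or the generation of each control male. They do not state that replicates were separate animals, and the tests rest on the variation among these samples, some of it perhaps technical. All values below are log2 expression values, and differences are differences of log2 means. In whole liver, fewer cells of a type and less RNA per cell cannot be told apart.

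A receptor typically has a zinc-finger domain that reads short DNA half-sites and a ligand pocket that decides whether coactivators or corepressors are bound. Many of the metabolic receptors of the liver act as pairs with a retinoid X receptor (RXR), while steroid receptors pair with themselves and several orphan receptors bind alone. In hepatocytes these proteins tie fatty acids, oxysterols, bile acids, drugs and hormones to the genes of fat oxidation, cholesterol disposal, bile acid synthesis and drug clearance.

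The arrays differed in ways that their groups do not account for. Mean small nucleolar RNA level split them at its widest gap into a higher set of 7 arrays (control replicates 2 and 4, F2 replicates 1 and 4, F3 replicates 1, 2 and 3) and a lower set of 5. Hepatocyte markers were detected throughout, 9 of the 9 measured, at a mean level of 12.41 to 12.56 in controls, 12.44 to 12.53 in F2 and 12.52 to 12.55 in F3. Of the markers of other cells, 5 of 10 were detected for Kupffer cells, 5 of 10 for sinusoidal endothelium, 3 of 10 for stellate cells, 1 of 5 for erythroid cells and 1 of 9 for adipocytes. None was detected of 8 for cholangiocytes, 9 for lymphocytes, 10 for neutrophils or 9 for muscle and pancreas. Kupffer markers averaged 7.53 to 7.82 in controls, 7.45 to 8.17 in F2 and 7.31 to 7.90 in F3, so their ranges overlapped.

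A subset of the family stood above background in liver. A gene was taken as detected where it exceeded the 95th percentile of the negative control probe sets (7.04 to 7.19 across arrays) on all 12 arrays. By this measure 13 of the 34 receptors were detected, against 4712 of 30142 genes (15.6%). The 13 were Ppara, Nr1h3, Nr1h4, Nr1i2, Nr1i3, Rxra, Thrb, Hnf4a, Nr0b2, Nr5a2, Rora, Nr3c1 and Nr3c2. Their means ran from 7.41 for Nr3c2 to 9.82 for Hnf4a. Values of different probe sets are brightnesses and do not rank the amounts of RNA. The Rora values came from a probe set whose name marks it as unmapped.

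Within several subfamilies the members stood on different sides of that level. Rxra was detected, while Rxrb (6.58 to 6.95) and Rxrg (5.91 to 6.31) were on no array. Thrb was detected and Thra (6.66 to 6.83) was not. Hnf4a ranged from 9.61 to 9.96 and Hnf4g from 3.44 to 3.76. None of the retinoic acid receptors was detected on all arrays, with Rara over the level on 8 arrays and Rarb and Rarg on none. Nr2f6 passed on 11 arrays, Nr2c2 on 8 and Pparg on 1. The other 17 receptors passed on no array, which leaves their levels in the range of the negative controls and does not show that the genes were silent. The negative controls were bright on this platform, with 43.0% of them above the filter. At their 99th percentile no receptor would count as detected, and at their 90th percentile 20 would. With the mean over the probe sets of a gene in place of the brightest, 12 were detected and Rora was not, and 16 were over the level on at least 6 arrays.

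**Figure D1:**
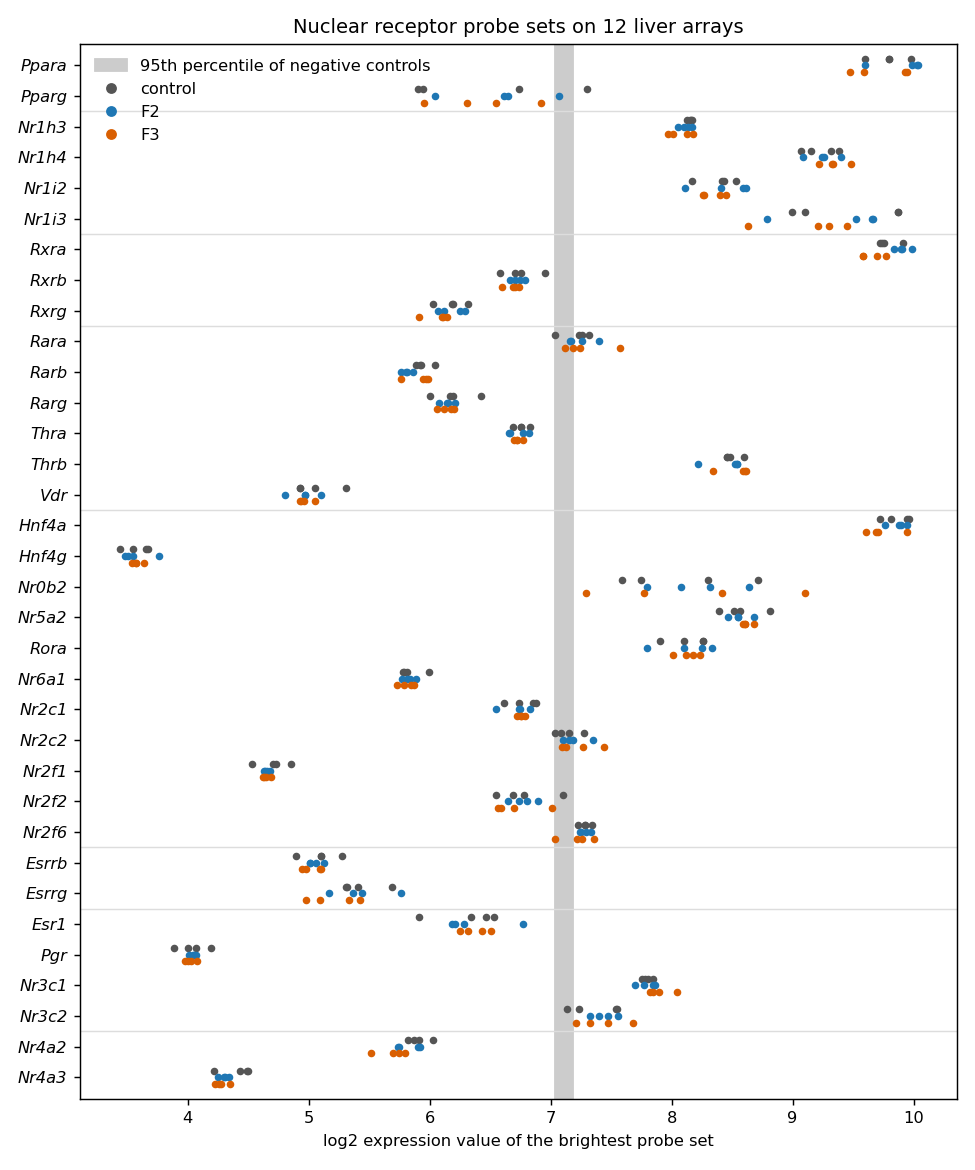
Each point is the log2 value of 1 array (x axis) for 1 receptor (rows, ordered by role), coloured by group. The grey band spans the 95th percentile of negative controls over the arrays, 7.04 to 7.19, and 13 receptors exceed the level of the same array on all 12 arrays.

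No receptor differed between the groups by the test across all genes. With limma at an adjusted p of 0.05, 0 of the 31 receptors passed in F2 against control, in F3 against control, in F3 against F2 or in the test of any difference among the 3 groups. The same held for all 18725 genes, 0% of which passed in each of these comparisons, with a smallest adjusted p of 0.9999, 0.9998 and 0.9999 for the 3 differences. At an unadjusted p under 0.05, limma gave 0, 1 and 1 receptors in the 3 differences in that order, beside 0.919%, 2.93% and 2.37% of all genes, and 2 receptors in the test of any difference, beside 1.7%.

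Most receptors had small differences with narrow intervals, but 18 of the 31 were not detected. The median within-group SD was 0.11 for these 18 and 0.13 for the 13 detected. For values in the range of the negative controls, a narrow interval does not show that the RNA was unchanged. In F2 against control 18 of the 31 receptors lay below 0, beside 56.7% of all genes. The median difference of the 31 was -0.01, as it was for all genes. In F3 against control 21 lay below 0, beside 54.7%, with a median of -0.04 and -0.01 for all genes. In F3 against F2 20 lay below 0, beside 48.6%, with a median of -0.02 and 0.0025 for all genes. These counts and medians moved with the setting. In F2, 12 lay below 0 after centring of the arrays on their medians and 14 without control replicate 2 and F2 replicate 2. In F3 the median was -0.0029 without control replicate 3. In F3 against F2, 16 lay below 0 and the median was -0.0022 with the array set as a block, and the median ran from -0.04 to -0.01 when 1 array at a time was left out. The 95% interval of limma stayed within a 1.5-fold change for 28 of 31 receptors in each comparison, beside 95.2%, 94.1% and 94.0% of all genes, and within a 2-fold change for 31. Nr0b2, Nr1i3 and Pparg were the 3 outside the narrower bound.

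**Figure D2:**
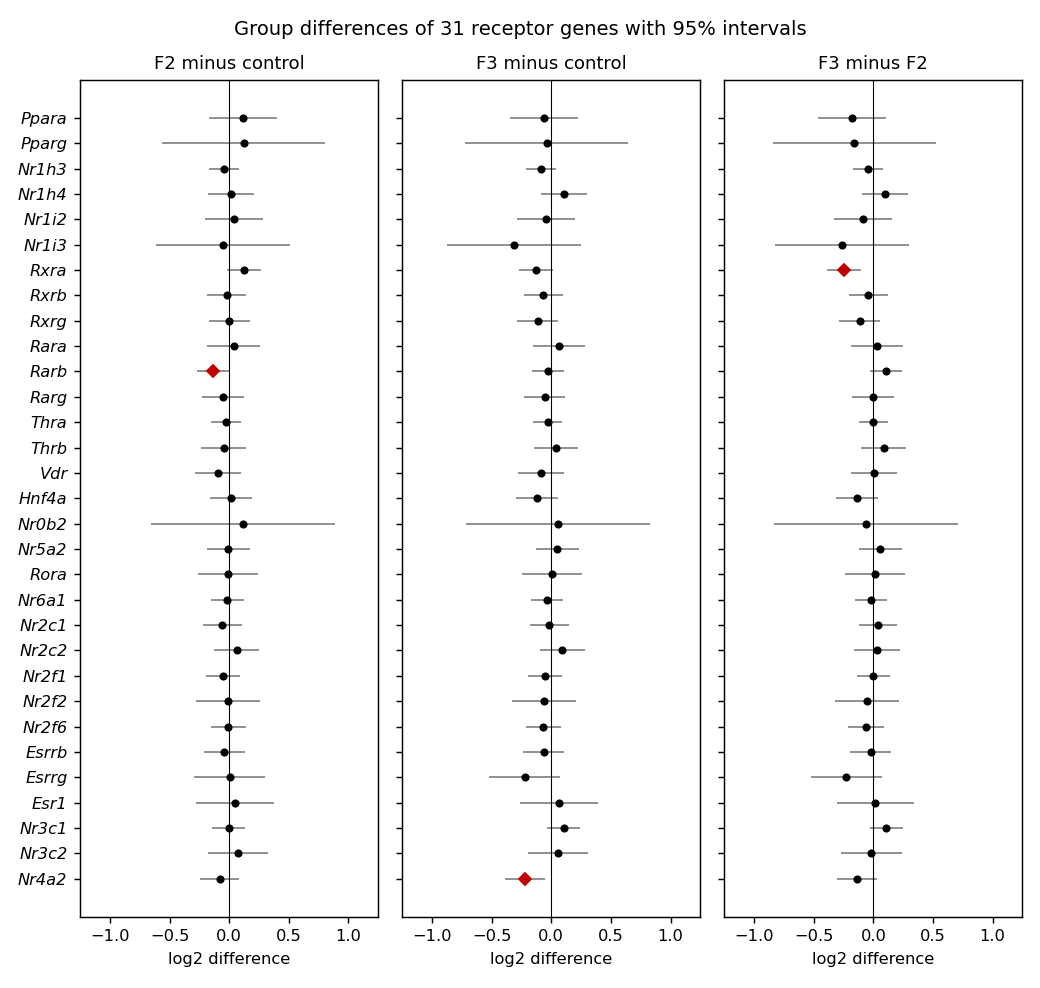
Points are log2 differences between group means for the 31 tested receptors (rows) in the 3 comparisons (panels), with 95% limma intervals as lines and red diamonds where the 4 arrays of one group lie on one side of the other 4. Each panel has 1 diamond, Rarb, Nr4a2 and Rxra from left to right, and no difference passed the test after adjustment over all genes.

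Separation of the groups was rare. The 4 arrays of one group lay wholly on one side of the 4 of the other for 1 of 31 receptors in F2 against control, beside 0.705% of all genes. The count was also 1 in F3 against control, beside 1.63%, and 1 in F3 against F2, beside 2.46%. These receptors were Rarb, Nr4a2 and Rxra. For 7 of the 31 receptors the 4 control arrays spanned every F2 and F3 array. The share of all genes with this span was not counted, so the count is not read as a result about the receptors. Among the 7, only Nr5a2 was detected. Rxrb, Rarg, Nr2f1 and Esrrb had the highest value on control replicate 3 and the lowest on control replicate 2.

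The retinoid X receptors are the shared partners of the fatty acid, oxysterol, bile acid, xenobiotic, thyroid hormone and retinoic acid receptors. Rxra read 9.76, 9.73, 9.74 and 9.91 in controls, 9.90, 9.99, 9.84 and 9.90 in F2, and 9.77, 9.70, 9.58 and 9.58 in F3. All 4 F3 arrays lay below all 4 F2 arrays, and the controls overlapped both groups. The F3 mean was 9.66 ± 0.09 (SD, n = 4) and the F2 mean 9.91 ± 0.06 (SD, n = 4), a difference of -0.25 (SE 0.066, 95% interval -0.39 to -0.10). By limma its unadjusted p was 0.0026 and its adjusted p 0.9999. The difference ran from -0.28 to -0.22 when each array was left out in turn, and was -0.21 within the higher array set and -0.33 within the lower, which holds 1 F3 array.

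Against the control mean of 9.78 ± 0.08 (SD, n = 4), Rxra lay 0.12 higher in F2 (interval -0.02 to 0.26) and -0.12 in F3 (interval -0.27 to 0.02). The F2 difference was 0.04 with array weights and 0.08 in the higher array set or without control replicate 2 and F2 replicate 2. The F3 difference was -0.083 without control replicate 4 and -0.19 with array weights. Rxrb and Rxrg, neither of them detected, had group means of 6.75, 6.73 and 6.68 and of 6.18, 6.18 and 6.07 in control, F2 and F3.

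**Figure D3:**
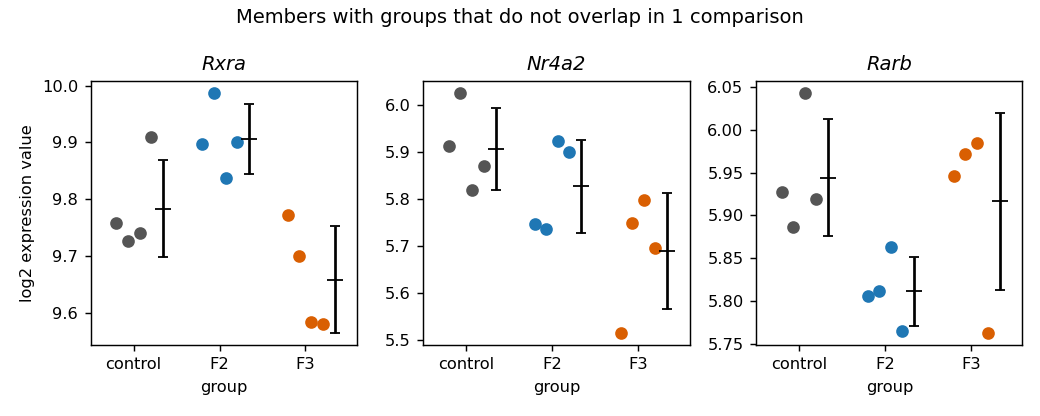
Points are log2 values per array of Rxra, Nr4a2 and Rarb by group, with the group mean and SD (n = 4) as a bar to the right. The 4 F3 arrays of Rxra (9.58 to 9.77) lie below the 4 F2 arrays (9.84 to 9.99), while Nr4a2 and Rarb separate F3 and F2 from control at levels under the 95th percentile of negative controls.

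Nr4a2, also called Nurr1, belongs to the NR4A receptors, which have no open ligand pocket and whose genes respond quickly to cAMP and stress signals. It read 5.91, 6.03, 5.82 and 5.87 in controls, 5.75, 5.74, 5.92 and 5.90 in F2, and 5.52, 5.75, 5.80 and 5.70 in F3. The highest F3 array lay just under the lowest control array, and F2 overlapped both. F3 differed from control by -0.22 (SE 0.077, interval -0.38 to -0.05, unadjusted p = 0.0144 and adjusted p = 0.9998 by limma). It differed from F2 by -0.14 (SE 0.077), or -0.08 without F3 replicate 1. Leaving out 1 array at a time gave -0.25 to -0.16 for F3 against control. Every value was under the 95th percentile of negative controls.

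Among the relatives of Nr4a2, Nr4a1 was no member of the list and Nr4a3 was under the filter. Nr4a1 read 6.28, 6.33, 6.40 and 6.40 in controls and 5.87, 6.15, 6.25 and 6.04 in F3, without overlap. The difference was -0.27 (SE 0.116, unadjusted p = 0.0356 and adjusted p = 0.9998 by limma). Like those of Nr4a2, all Nr4a1 values were under the negative-control level used for detection, so Nr4a1 was not detected. The F3 minus F2 difference of Nr4a1 was -0.25, or -0.12 without F2 replicate 4. Nr4a3 had means of 4.41, 4.30 and 4.28 in control, F2 and F3.

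The receptors for retinoic acid, thyroid hormone and vitamin D pair with RXR and sit on DNA with or without hormone. Rarb, the retinoic acid receptor whose own gene is induced by retinoic acid, read 5.93, 5.89, 6.04 and 5.92 in controls, 5.81, 5.81, 5.86 and 5.76 in F2, and 5.95, 5.97, 5.98 and 5.76 in F3. The F2 arrays were all lower than the controls, and the F3 arrays overlapped both groups. The F2 difference from control was -0.13 (SE 0.063, interval -0.27 to 0.004, unadjusted p = 0.0563 by limma), at values under the 95th percentile of negative controls. It ran from -0.15 to -0.10 when 1 array at a time was left out.

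Thrb, the main thyroid hormone receptor of hepatocytes, ranged from 8.22 to 8.62, with group means of 8.50, 8.46 and 8.54 in control, F2 and F3. Thra had the smallest within-group SD of the tested receptors, 0.059. Vdr, the vitamin D receptor, ranged from 4.80 to 5.31 and was not detected. Its F2 minus control difference was -0.09, and -0.0087 without control replicate 3, which held its highest value, or -0.04 without F2 replicate 1. It was -0.18 without control replicate 2 and F2 replicate 2 together. Rara and Rarg had group means of 7.21, 7.25 and 7.28 and of 6.20, 6.15 and 6.14.

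Lists of genes under these receptors held no gene that passed. Medians of the lists here and below were small, and 19 of 33 (11 lists in 3 comparisons) turned sign when some 1 array was left out. Of 18 tested targets of the thyroid hormone receptor, 12 lay below 0 in F2 (median -0.08), 11 in F3 (median -0.05) and 8 in F3 against F2 (median 0.03). Their lowest p in F2 belonged to Fasn, fatty acid synthase, with values of 10.78, 11.07, 10.30 and 11.44 in controls and 10.95, 9.43, 9.49 and 9.18 in F2. That difference was -1.14 (SE 0.416, interval -2.04 to -0.23, unadjusted p = 0.0179 by limma), with F2 replicate 1 inside the control range. In F3 the lowest p belonged to Slc16a10, an aromatic amino acid transporter, at -0.26 (SE 0.068), all 4 F3 arrays under the 4 controls, and at -0.17 in the lower array set. Without control replicate 2 the F2 median of the list was -0.01. The F3 median was 0.0027 without F3 replicate 4, and the F3 minus F2 median -0.03 without F3 replicate 3.

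Of 15 tested genes of retinoic acid and vitamin D, 13 lay below 0 in F2 (median -0.07), 9 in F3 (median -0.05) and 7 in F3 against F2 (median 0.04). Rarb had the lowest p in F2. Lrat, which stores retinol as its ester and marks stellate cells, had the lowest p in the other comparisons. It was 0.25 above control in F3 (SE 0.149) and 0.39 above F2 (SE 0.149). The F3 minus control value was 0.14 without control replicate 4, 0.55 in the higher array set and -0.19 in the lower. Stellate markers averaged 6.79 to 7.05 in controls, 6.80 to 7.04 in F2 and 6.96 to 7.03 in F3, and their part in this value was not tested. Without control replicate 3 the median of the list was 0.02 in F2 and 0.01 in F3.

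The PPARs bind fatty acids and their derivatives. Ppara drives fat oxidation in the fasting liver, and Pparg drives fat storage, mainly in adipocytes. Ppara read 9.60, 9.98, 9.80 and 9.80 in controls, 10.03, 9.60, 10.03 and 9.99 in F2, and 9.94, 9.93, 9.47 and 9.59 in F3. The groups overlapped widely, with means of 9.79 ± 0.15, 9.91 ± 0.21 and 9.73 ± 0.24 (SD, n = 4 each). F2 replicate 2 stood apart from the other 3 F2 arrays.

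Targets of PPARA lay below F2 and control in F3 by count, but single arrays set much of this. Of 31 tested targets of 34 listed, none passed. In F2 against control 14 lay below 0 (median 0.03), in F3 against control 29 did (median -0.22), and in F3 against F2 30 did (median -0.18). The F3 count rests on 1 control array: without control replicate 2, 12 of 31 lay below 0 and the median was 0.04. In F2 that array also decided the count, with 1 below 0 and a median of 0.22 without it, and the F2 median was -0.11 without F2 replicate 4. The F3 minus F2 median was -0.09 without F2 replicate 4 and -0.31 without F2 replicate 2, and within the lower array set 22 of the 31 lay below 0.

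A score for the list, the median over its genes of the value minus the mean of that gene over 12 arrays, was 0.60 on control replicate 2 and 0.32 on F2 replicate 4, and -0.31 to 0.13 on the other 10 arrays. Cyp4a14, a fatty acid omega-hydroxylase, read 7.46, 12.59, 9.76 and 7.14 in controls, 8.69, 6.92, 7.79 and 11.62 in F2, and between 5.72 and 8.82 in F3. Vnn1, a pantetheinase, read 10.18 on control replicate 2 and 9.85 on F2 replicate 4, and from 6.68 to 8.79 elsewhere. Both genes were picked after their values were seen. The same 2 arrays were the highest for each. Ppara read 9.98 on control replicate 2 and 9.99 on F2 replicate 4, close to its highest value of 10.03. A link between Ppara and these values was not tested.

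Cpt1a, the gate to mitochondrial fat oxidation, had the lowest p of the list in 2 comparisons. It read 11.40, 11.40, 11.32 and 11.53 in F2 and 11.21, 11.29, 10.95 and 10.87 in F3, with no overlap, and 11.10, 11.49, 11.02 and 11.04 in controls. F3 differed from F2 by -0.33 (SE 0.118, interval -0.59 to -0.08, unadjusted p = 0.0153 and adjusted p = 0.9999 by limma). F2 differed from control by 0.25 (SE 0.118), or 0.36 without control replicate 2. In F3 against control the lowest p of the list was that of Mlycd, malonyl-CoA decarboxylase, at -0.11 (SE 0.066), which was -0.05 without F3 replicate 3 or with the mean over its probe sets, and 0.0023 in the lower array set.

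**Figure D4:**
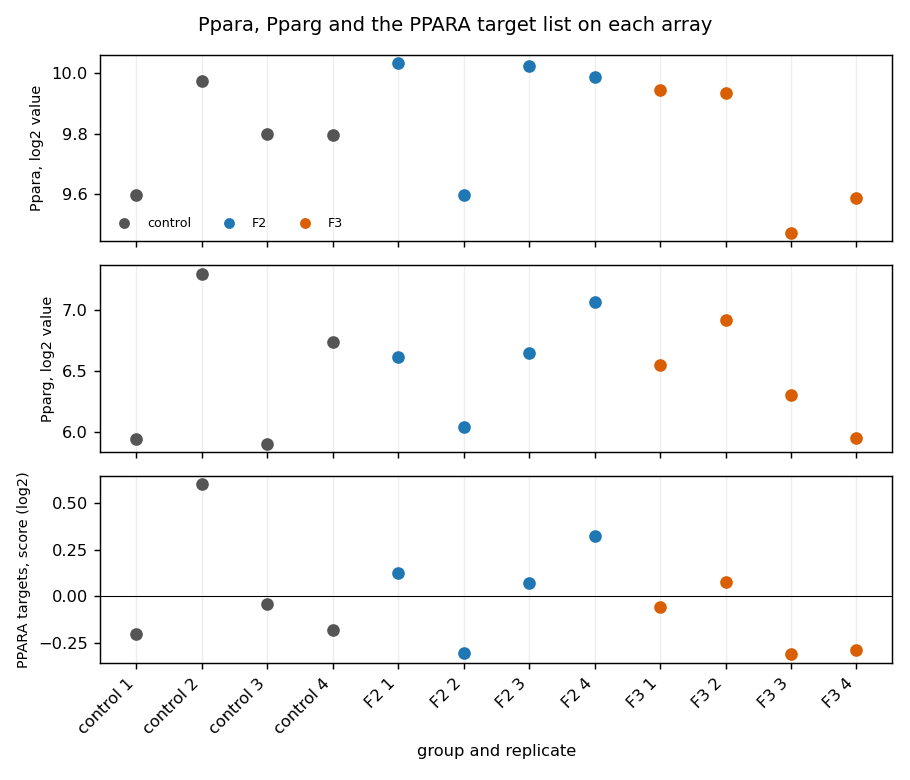
The panels give, for each of the 12 arrays (x axis), the log2 value of Ppara, the log2 value of Pparg and the score of the 31 PPARA targets (log2, 0 being the mean of each gene). The target score is highest on control replicate 2 (0.60) and F2 replicate 4 (0.32), where Ppara reads 9.98 and 9.99 and Pparg has its highest values, 7.30 and 7.07. The highest Ppara value is 10.03, and a link of either receptor to the score was not tested.

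Pparg read 5.95, 7.30, 5.91 and 6.74 in controls, 6.62, 6.04, 6.65 and 7.07 in F2, and 6.55, 6.92, 6.31 and 5.96 in F3. Each group held both high and low arrays, and only control replicate 2 passed the 95th percentile of negative controls. Its differences were small beside this spread, with limma intervals of -0.56 to 0.80 in F2, -0.72 to 0.64 in F3 and -0.84 to 0.52 in F3 against F2. Pparg averaged higher in the higher small nucleolar RNA set, where it ran from 6.31 to 7.30, than in the lower set, 5.91 to 6.65.

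Genes known as PPARG targets in fatty liver were read on the same arrays, picked after their values were seen. Cidec, a lipid droplet protein, had its 3 highest values on the arrays where Pparg did, 7.06 on control replicate 2, 6.66 on F2 replicate 4 and 6.29 on F3 replicate 2. Cd36, a fatty acid transporter, read 9.35 on control replicate 2 and 8.14 on F2 replicate 4, and 6.99 to 7.68 on the other arrays. Not all genes tied to fat storage followed Pparg. Adipoq ranged from 2.69 to 3.00, Plin1 from 5.19 to 5.55 and Fabp4 from 4.94 to 5.34. On control replicate 2, where Pparg was highest, Adipoq read 2.88, Plin1 5.19, its lowest value, and Fabp4 5.26. None of these genes had its highest value there. Cidec, which ran from 5.26 to 7.06, is on the adipocyte marker list too. Of the 9 measured adipocyte markers 1 was detected, Pck1, a gluconeogenesis gene with a mean of 11.56 in controls. The mean of the 9, Cidec and Pck1 included, was 5.78 to 5.86 in controls, 5.76 to 5.88 in F2 and 5.67 to 5.91 in F3. A part of fat cells in the Pparg and Cidec values was not tested.

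The spread of Pparg was among the largest in the family. Its pooled within-group SD was 0.51, the 98.1st percentile of all genes tested. Nr0b2 had a larger one, 0.58 (98.5th percentile), and Nr1i3 came after Pparg, 0.42 (97.0th), followed by Esr1, 0.24 (89.1st), and Esrrg, 0.21 (86.3rd). These 5 were picked by their spread, so their place is a description. The place of Esr1 rests on 2 arrays: without control replicate 2 and F2 replicate 2 its SD was 0.094, and Nr3c2 took the 4th place at 0.19. Of the 31 tested receptors 25 had an SD under 0.2. Nr1h3 stood near the other end at 0.065 (6.5th percentile).

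**Figure D5:**
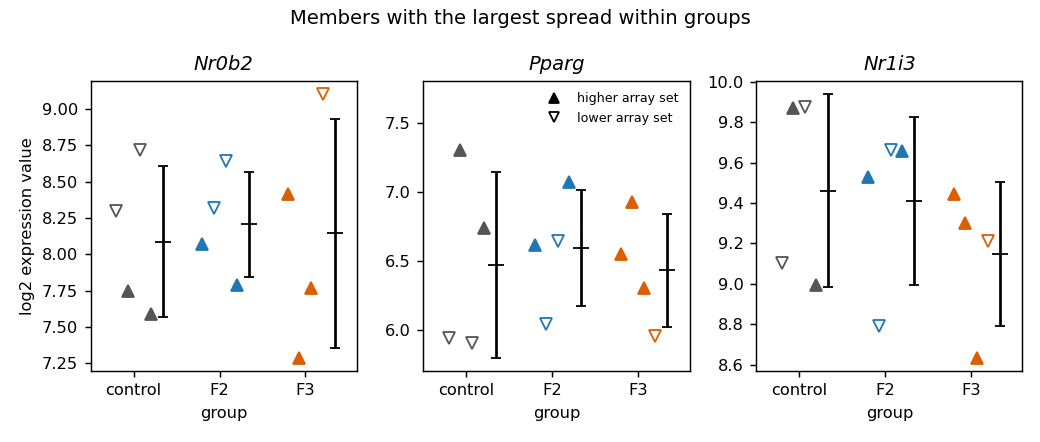
Triangles are log2 values per array of Nr0b2, Pparg and Nr1i3 by group, pointing up and filled for the higher small nucleolar RNA set and down and open for the lower set, with the group mean and SD (n = 4) as a bar. In Nr0b2 the lower set (8.30 to 9.10) sits mostly above the higher set (7.29 to 8.42), and group means differ by less than the spread within groups.

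Nr0b2, or SHP, is an unusual receptor without a DNA-binding domain. It is induced by the bile acid receptor FXR and represses other receptors. It read 8.30, 7.75, 8.72 and 7.59 in controls, 8.08, 8.32, 8.64 and 7.79 in F2, and 8.42, 7.29, 7.77 and 9.10 in F3. Both the lowest and the highest of the 12 values were in F3, and the group means were 8.09 ± 0.52, 8.21 ± 0.36 and 8.15 ± 0.79 (SD, n = 4 each). The limma intervals were -0.65 to 0.89 in F2, -0.71 to 0.83 in F3 and -0.83 to 0.71 in F3 against F2. Its mean in the higher array set differed from that in the lower by -0.80, with ranges of 7.29 to 8.42 and 8.30 to 9.10. None of the 31 receptors separated the array sets without overlap, beside 5.71% of all genes.

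Nr1i3, or CAR, senses drugs and bilirubin and controls drug-clearing enzymes. It read 9.10, 9.87, 9.87 and 8.99 in controls, 9.53, 8.79, 9.66 and 9.66 in F2, and 9.45, 9.30, 8.63 and 9.21 in F3. Low and high arrays occurred in each group, and the array sets did not part it, with ranges of 8.63 to 9.87 and 8.79 to 9.87. The intervals were -0.61 to 0.51 in F2, -0.87 to 0.25 in F3 and -0.82 to 0.30 in F3 against F2.

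The start-site sequences of the 3 most variable receptors show which receptor and clock motifs lie beside them. Windows from RefSeq (GRCm38.p6) run from 250 bases before to 50 after a start site, on the plus strand, and capitals mark 3 motifs on either strand. AGGTCA is the half-site that most family members read, TCAAGG is the start of the extended site read by NR5A2 and estrogen-related receptors, and CACGTG is the E-box read by the clock proteins.
Nr0b2, chr4:133553126-133553425: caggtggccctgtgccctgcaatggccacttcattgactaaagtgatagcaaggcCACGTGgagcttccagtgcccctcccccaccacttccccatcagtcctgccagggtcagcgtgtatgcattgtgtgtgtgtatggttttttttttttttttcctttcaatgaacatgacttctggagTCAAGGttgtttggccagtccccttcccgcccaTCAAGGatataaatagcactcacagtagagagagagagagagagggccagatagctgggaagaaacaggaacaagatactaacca
Nr1i3, chr1:171213720-171214019: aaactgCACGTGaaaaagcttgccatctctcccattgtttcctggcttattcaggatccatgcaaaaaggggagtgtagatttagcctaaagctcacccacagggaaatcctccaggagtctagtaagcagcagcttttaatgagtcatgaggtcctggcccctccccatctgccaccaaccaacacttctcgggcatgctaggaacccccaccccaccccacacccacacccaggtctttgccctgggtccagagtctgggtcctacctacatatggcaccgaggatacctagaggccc
Pparg, chr6:115360894-115361193: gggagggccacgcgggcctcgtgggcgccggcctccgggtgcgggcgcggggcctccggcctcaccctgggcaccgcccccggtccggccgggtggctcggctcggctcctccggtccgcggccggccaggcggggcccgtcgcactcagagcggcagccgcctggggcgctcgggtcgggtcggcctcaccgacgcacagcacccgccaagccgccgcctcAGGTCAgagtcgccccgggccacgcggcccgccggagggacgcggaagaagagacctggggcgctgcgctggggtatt
Pparg, chr6:115362099-115362398: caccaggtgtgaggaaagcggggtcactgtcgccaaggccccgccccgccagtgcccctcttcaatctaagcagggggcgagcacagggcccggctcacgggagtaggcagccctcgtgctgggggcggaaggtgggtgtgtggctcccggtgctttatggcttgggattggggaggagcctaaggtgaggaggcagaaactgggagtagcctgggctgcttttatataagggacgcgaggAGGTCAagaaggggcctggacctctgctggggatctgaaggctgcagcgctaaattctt
Pparg, chr6:115421816-115422115: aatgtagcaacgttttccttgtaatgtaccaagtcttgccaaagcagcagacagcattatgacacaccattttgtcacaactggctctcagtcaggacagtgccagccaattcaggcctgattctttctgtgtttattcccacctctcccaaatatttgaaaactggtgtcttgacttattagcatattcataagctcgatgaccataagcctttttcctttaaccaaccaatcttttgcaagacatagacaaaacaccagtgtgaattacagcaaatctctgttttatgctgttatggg

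The Nr0b2 window held TCAAGG at 2 places and CACGTG at 1, and the Nr1i3 window held CACGTG at 1. Of the 3 Pparg windows, 2 held 1 AGGTCA each and the third none of the motifs. One probe set covers Pparg, so its value does not separate these starts. Over the 51 windows of the members, AGGTCA was in 10, TCAAGG in 8 and CACGTG in 5, and over all 32817 windows the shares were 16.3%, 14.4% and 7.15%. The full RXR pair sites AGGTCANAGGTCA, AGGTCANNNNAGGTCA and the inverted AGGTCANTGACCT were in 0 member windows and in 0.0396%, 0.0152% and 0.00914% of all windows. Sites overlap by construction, since TCAAGG and AGGTCA share letters in an extended site, and a match is a description of these letters.

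The oxysterol, bile acid and xenobiotic receptors LXRA (Nr1h3), FXR (Nr1h4), PXR (Nr1i2) and CAR (Nr1i3) were all detected. LXRA senses oxysterols and FXR bile acids, and PXR shares many drug targets with CAR. Nr1h3 was 8.15 ± 0.02 in controls, 8.11 ± 0.05 in F2 and 8.07 ± 0.10 in F3 (SD, n = 4 each). Nr1h4 was 9.23, 9.24 and 9.34 and Nr1i2 8.39, 8.43 and 8.35 in the same order, with overlapping arrays. None of these was among the 3 lowest p-values of any comparison.

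Targets of LXR stayed close to 0 as a list. Of 17 tested, 11 lay below 0 in F2 (median -0.03), 10 in F3 (median -0.02) and 9 in F3 against F2 (median -0.01, or 0.03 without F2 replicate 4). Rnf145, a ubiquitin ligase of the sterol pathway, had the lowest p in F3, at -0.22 from control (SE 0.084, unadjusted p = 0.0246 by limma) and -0.17 from F2. Mlxipl, the carbohydrate-sensing factor ChREBP, had it in F2 at -0.13 (SE 0.105), which was -0.04 without F2 replicate 2, -0.03 with array weights and 0.07 in the higher array set.

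Bile acid genes included the difference of Cyp8b1, the 12-alpha-hydroxylase that directs synthesis towards cholic acid. It read 10.67, 10.90, 10.38 and 10.28 in controls, 10.23, 9.55, 10.22 and 10.29 in F2, and 9.89, 10.03, 9.71 and 9.74 in F3. All F3 arrays lay below all controls, and 1 F2 array lay inside the control range. F3 differed from control by -0.71 (SE 0.171, unadjusted p = 0.0012 and adjusted p = 0.9998 by limma), and F2 by -0.48 (SE 0.171), or -0.31 without F2 replicate 2 and -0.24 with array weights. Nr0b2, known to repress this gene, had groups that overlapped, with a wide limma interval of -0.71 to 0.83 in F3. Its part in the Cyp8b1 values was not tested. Cyp7a1, which starts the pathway, ranged from 10.36 to 11.13 in controls, up to 10.99 in F2 and 10.10 to 11.01 in F3.

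The list of FXR targets and bile acid genes as a whole had medians near 0. It mixes genes that FXR induces, such as Nr0b2, with genes that Nr0b2 represses, such as Cyp8b1. Opposite changes can cancel in such a median, which does not measure FXR activity. Of 20 tested, 10 lay below 0 in F2 (median -0.01), 7 in F3 (median 0.05) and 7 in F3 against F2 (median 0.05). Without F3 replicate 4, which had the highest Nr0b2, the last 2 medians were -0.03 and -0.04, and after quantile normalization 11 lay below 0 in F3 against F2. Abcb11, the bile salt export pump, had the lowest p there, 0.20 higher in F3 (SE 0.091), with 0.14 to 0.27 when 1 array at a time was left out, 0.08 in the higher array set and 0.46 in the lower.

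Drug-metabolism targets of PXR and CAR lay mostly below 0 in F2, 24 of 26 tested (median -0.22), but this count leaned on F2 replicate 2. Without it 20 lay below 0 and the median was -0.05, and without control replicate 2 as well 14 did. In F3, 19 lay below 0 (median -0.10, or -0.02 without F3 replicate 3), and in F3 against F2 10 did (median 0.08, or 0.0083 without F2 replicate 2). Gstm2, a glutathione transferase, read 8.51, 8.88, 8.64 and 8.75 in controls and 8.43, 8.34, 8.46 and 8.46 in F2, without overlap, a difference of -0.27 (SE 0.084, unadjusted p = 0.00758 and adjusted p = 0.9999 by limma). In F3 it also differed by -0.27, with overlap. By array set, the F2 value was -0.17 in the lower set, and the F3 value -0.42 in the higher and -0.06 in the lower.

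F2 replicate 2 held the lowest of the 12 values for 4 of the 13 detected receptors, Nr1i2 (8.11) among them. The lowest Nr1i3 of the 12 was on F3 replicate 3 (8.63). F2 replicate 2, the F2 array with the lowest Nr1i3, was also the lowest F2 array for 2 drug-handling genes. Slco1a4, an organic anion transporter, read 5.14 there and 6.48 to 6.55 on the other F2 arrays. Its F3 minus F2 difference of 0.52 (SE 0.279) was 0.17 without that array, 0.25 with array weights and 0.21 in the higher array set. Cyp3a11, the main PXR-induced cytochrome, read 10.77 there, the lowest of the 12. Cyp2b10, the classic CAR target, read 6.00 on F3 replicate 4 and 3.80 to 4.21 on the other 11, while Nr1i3 on that array was 9.21. Cyp3a11 and Cyp2b10 were picked after their values were seen.

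The hepatocyte and orphan regulators hold the liver's identity factors. Hnf4a, which binds DNA as a pair with itself and keeps hepatocyte genes on, read 9.94, 9.81, 9.96 and 9.72 in controls, 9.90, 9.88, 9.95 and 9.77 in F2, and 9.69, 9.61, 9.71 and 9.94 in F3. Of the F3 arrays 3 were under every control and F2 array, and F3 replicate 4 was not, so the groups overlapped. Those 3 F3 arrays are in the higher small nucleolar RNA set and F3 replicate 4 in the lower. Hnf4a ran from 9.61 to 9.90 in the higher set and from 9.88 to 9.96 in the lower. Nr5a2, or LRH-1, a regulator of bile acid and acute-phase genes, had means of 8.57, 8.56 and 8.62, and Rora, a clock and lipid regulator, 8.13, 8.12 and 8.13.

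None of these hepatocyte and orphan regulators was among the named differences. The testicular receptors Nr2c1 and Nr2c2 ranged from 6.55 to 6.88 and from 7.04 to 7.44, and Nr2f1, Nr2f2 and Nr2f6 of the COUP-TF group from 4.53 to 4.85, 6.55 to 7.10 and 7.04 to 7.36. Nr6a1, the germ cell nuclear factor, ranged from 5.73 to 5.99. Of 24 tested targets of HNF4A, NR5A2 and the ROR receptors, 11 lay below 0 in F2 (median 0.01), 5 in F3 (median 0.07) and 4 in F3 against F2 (median 0.05). Without control replicate 2 the F3 count was 11 and its median 0.02, without F2 replicate 2 the F3 minus F2 count was 11, and after quantile normalization these counts were 11 and 12. Cyp8b1 had the lowest p in F2 and F3, and Pklr, liver pyruvate kinase, in F3 against F2 at 0.45 (SE 0.167, unadjusted p = 0.0199 by limma), or 0.23 in the lower array set.

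Estrogen-related receptors drive mitochondrial genes together with the PGC-1 coactivators. Esrrg read 5.32, 5.69, 5.31 and 5.41 in controls, 5.37, 5.17, 5.44 and 5.77 in F2, and 5.34, 5.42, 5.10 and 4.97 in F3. The groups overlapped, and every value was under the 95th percentile of negative controls. Its F3 minus control difference was -0.22 (SE 0.136, interval -0.52 to 0.07, unadjusted p = 0.127 by limma), and -0.14 without control replicate 2 or -0.15 without F3 replicate 4. It was -0.34 in the lower array set, and a fit that blocks on array set gave -0.29 (unadjusted p = 0.0194 and adjusted p = 0.9999 by limma). Esrrb ranged from 4.89 to 5.28.

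Of 16 tested targets of these receptors and PGC-1, 15 lay below 0 in F2 (median -0.08), 11 in F3 (median -0.09) and 8 in F3 against F2 (median 0.02). Without control replicate 2 the count below 0 in F2 was 10 (median -0.02), without F2 replicate 2 it was 12, and without both it was 6. In F3 it was 9 without control replicate 2. Mdh2, mitochondrial malate dehydrogenase, had the lowest p in both comparisons with control, -0.15 in F2 (SE 0.092, -0.08 with array weights) and -0.24 in F3 (SE 0.092, -0.12 in the lower array set). Ndufa4, of the respiratory chain, was 0.15 higher in F3 than in F2 (SE 0.073), or 0.10 without F3 replicate 4 and 0.08 after quantile normalization.

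The steroid receptors Nr3c1 and Nr3c2, for glucocorticoid and mineralocorticoid hormones, were detected. Nr3c1 read 7.85, 7.76, 7.78 and 7.81 in controls, 7.77, 7.70, 7.84 and 7.86 in F2, and 8.05, 7.90, 7.82 and 7.84 in F3. The F3 arrays overlapped both other groups, and F3 differed from F2 by 0.11 (SE 0.064, unadjusted p = 0.113 by limma), or 0.06 without F3 replicate 1. Nr3c2 ranged from 7.13 to 7.68. Esr1, the estrogen receptor alpha, read 6.53, 5.91, 6.34 and 6.47 in controls, 6.21, 6.77, 6.28 and 6.19 in F2, and 6.43, 6.32, 6.51 and 6.25 in F3, with its extremes on control replicate 2 and F2 replicate 2. Pgr, the progesterone receptor, ranged from 3.89 to 4.19.

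Of 19 tested glucocorticoid receptor targets, 7 lay below 0 in F2 (median 0.07), 13 in F3 (median -0.09) and 15 in F3 against F2 (median -0.17). The medians moved with single arrays, to -0.04 in F2 and -0.03 in F3 against F2 without F2 replicate 3, and to -0.03 in F3 without control replicate 2. Pck1, which catalyses a committed step of gluconeogenesis, had the lowest p in F2 at 0.28 (SE 0.120, unadjusted p = 0.0372 by limma), and 0.14 in the lower array set. Per1, a clock gene induced by glucocorticoids, had it in F3 at -0.31 (SE 0.186), or -0.47 without control replicate 4 and -0.10 with array weights. Errfi1, a brake on growth factor receptors, had it in F3 against F2 at -0.18 (SE 0.078).

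Coregulators join receptors to chromatin enzymes. Of 24 tested, 10 lay below 0 in F2 (median 0.01), 15 in F3 (median -0.02) and 15 in F3 against F2 (median -0.03). Without control replicate 2, 10 lay below 0 in F3 (median 0.02). Pprc1, a coactivator related to PGC-1, had all F3 arrays (5.82, 5.61, 5.85 and 5.84) under all controls (6.02, 5.91, 5.89 and 5.98), a difference of -0.17 (SE 0.068, unadjusted p = 0.0260 by limma). It was -0.13 from F2, or -0.07 without F3 replicate 2. Tbl1xr1, a part of the corepressor complex, had the lowest p in F2 at 0.16 (SE 0.105), or 0.26 without control replicate 2, 0.07 without control replicate 3 and 0.05 in the higher array set. No coregulator passed the test.

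Beyond the members, 6 of 12 other nuclear receptors were tested and none passed, with medians of -0.002 in F2, -0.02 in F3 and -0.002 in F3 against F2. Single arrays turned these medians, to 0.04 in F2 and 0.03 in F3 without control replicate 3 and to 0.02 in F3 against F2 without F2 replicate 3, and the F3 median was -0.08 without control replicate 2. Nr1h5, a relative of FXR, had the lowest p in F2 at 0.10 (SE 0.092), with 0.04 to 0.17 when 1 array at a time was left out. Nr4a1, described above, had the lowest in both comparisons with F3. Across the members themselves, control replicate 3 held the highest value for 10 of 31 receptors, 8 of them among the 18 tested but undetected, and it also had the lowest negative-control median, 4.04 against 4.17 to 4.40 on the other arrays. The part of this in the differences of the undetected receptors was not tested.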

How the data were processed

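Total liver RNA of 12 samples in 3 labelled groups of 4 was measured on Affymetrix whole-transcript arrays. The log2 values, 1 per probe set and array, were deposited by the authors, whose software, per the submitters' processing notes, was Affymetrix Expression Console. Its normalization is not given in the sources used here. Values ran from 0.73 to 13.64, and array medians from 4.49 to 4.60. No pair of arrays was identical.

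Of 72688 probe sets, 30604 had 1 gene symbol, and 827 symbols were updated through RefSeq. Each gene was read from its probe set with the highest mean, and genes with a mean above 4.55, the median of all probe sets, were tested. One limma fit (version 3.58.1, under R 4.3.3) covered the 3 groups without covariates and left 9 residual degrees of freedom for eBayes, with two-sided tests and Benjamini-Hochberg adjustment over 18725 genes at 0.05. Intervals are 95% limma intervals, and precision is limited by there being 12 arrays. The procedure was tested on simulated data.

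Named differences are those of receptors that passed, that separated 2 groups, or that had the 3 lowest p-values of a comparison, and the 1 gene per target list with the lowest p. The 5 receptors with the largest spread were named too. Other genes are said to be chosen after their values were seen. The members and all lists were chosen with earlier results of these data known. Promoter windows on chromosome 18 were left out. Samples of the same replicate number did not deviate together (residual correlation -0.60 to 0.43, median -0.26, over 12 pairs), so no pairing was used. The alternatives changed the normalization, the filter, the probe set summary, the variance model, array weights, the arrays in the fit, the array set and the threshold.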

Additional observations from a re-analysis of the deposited data

Results flagged for a closer look

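Of 102 group-wise sets of 4 arrays, 6 had an array whose gap to the nearest other exceeded Dixon's 95% critical value, beside 5.1 that chance would give at 1 in 20. F2 replicate 2 made 4 of the 6. Ppara read 9.60 there and 9.99 to 10.03 on the other F2 arrays, Nr1i3 8.79 against 9.53 to 9.66, Thrb 8.22 against 8.52 to 8.54, and Esr1 6.77 against 6.19 to 6.28. In F3, Thrb read 8.35 on replicate 2 against 8.59 to 8.62, and Nr5a2 read 8.68 on replicate 4, with 8.59 as the lowest of the others.

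Rxra was flagged because F2 (mean 9.91) and F3 (mean 9.66) lay on opposite sides of the control mean. Their difference of -0.25, with all 4 F3 arrays under all 4 F2 arrays, did not pass limma's test over all genes (adjusted p = 0.9999).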

How the results depend on the processing

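The 38 named gene differences, 9 of them of receptors, gave 980 values under the alternatives. Of these, 977 kept their direction and their side of the threshold, and 0 passed it. This count is no measure of stability, since adjusted p-values in the main limma fit were near 0.9998 or 0.9999. Some settings, such as the replicate block, also leave a difference unchanged by construction. Sizes moved more, by a factor over 1.5 in places, as for Slco1a4 in F3 against F2 (0.52, and 0.17 without F2 replicate 2). The 3 that turned direction were Mlycd in F3 (0.0023) and Lrat in F3 (-0.19) in the lower array set and Mlxipl in F2 (0.069) in the higher set. The count of genes called by limma was 0 in every comparison when any 1 array was left out, and was above 0 only within the lower array set, with 2 genes in F3 against control, 3 in F3 against F2 and 1 in the test of any difference, none of them a receptor. With the replicate number as a block, 0 genes and 0 receptors were called in each comparison, and 140, 409 and 341 genes had an unadjusted p under 0.05 in F2 against control, F3 against control and F3 against F2. The count of detected receptors was 20 at the 90th percentile of negative controls, 0 at the 99th and 30 at the median of all probe sets. The arrays give no depth, and receptors under the negative-control level are limited by their signal over background. The lower set holds 1 F3 array, which is assumed to vary like the other groups.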
